A study of Rattus norvegicus with 8 samples.

Results

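Rab GTPases are small proteins that switch membrane traffic on and off, and the Rab escort proteins are the factors that ready them for membranes. The family was chosen by gene symbol: every symbol made of Rab, a number and at most 1 letter, together with Chm and Chml, the genes of Rab escort proteins 1 and 2. This gave 56 genes (54 Rab genes and 2 escort protein genes) of 15037 named on the array. The rule asked for the brightest probe set of a symbol, but each of the 56 symbols had exactly 1 probe set, so brightness decided nothing. The values were measured in H9c2 cells, a myoblast line from embryonic rat heart that can form skeletal muscle-like myotubes.

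There were 4 groups. Cells kept aboard the International Space Station with nanoceria (cerium oxide nanoparticles coated with serum, 100 µg/ml) gave 2 arrays, and cells kept there without nanoceria gave 1 array. Ground cells with the same dose of nanoceria gave 3 arrays, and untreated ground cells gave 2, numbered 1 and 3 (replicate 2 was not analysed here). All groups shared the line, the serum-poor differentiation medium, a seeding density of 35000 cells per square centimetre, transport in a pouch warmed to 27 °C, a 37 °C incubator from day 7 and fixation on day 10. Ground cultures were started after the flight, followed its logged temperatures and were activated by hand, so gravity regime and culture run cannot be told apart. From each sample, 30 ng of total RNA went onto a rat Clariom S Pico array, and the deposited intensity is used here as its log2. The labels do not say that replicates were separate cultures, so the p-values measure only the spread between these samples, which may be technical. RNA was taken from whole cultures, so fewer cells of a kind and less RNA per cell cannot be told apart.

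A newly made Rab protein is bound by an escort protein, which presents it to the Rab geranylgeranyl transferase. The enzyme adds the lipid tails that hold the Rab in a membrane. Exchange factors then load the Rab with GTP, effectors that tether vesicles or move them bind the loaded form, and GTPase-activating proteins end the signal. GDP dissociation inhibitors take the spent Rab back to the cytosol. Each Rab marks its own set of compartments, from the endoplasmic reticulum and Golgi to endosomes, lysosomes and secretory vesicles. In humans, loss of CHM causes choroideremia, a degeneration of the retina, and CHML is expressed from a related gene. In muscle cells, Rab proteins serve among other things the delivery of glucose transporters to the surface.

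Array medians were alike, between 107 and 117 on the intensity scale. Vim, a mesenchymal and myoblast marker, read 13.62 to 14.00 on the log2 scale over the 8 arrays. Of the muscle genes, Actc1 read 8.00 to 9.77 and Des 6.64 to 7.80, whereas Chrna1 (4.41 to 6.90) and Myf5 (4.01 to 4.75) were dimmer. Acta1, the skeletal muscle actin, read 8.69 and 9.22 in space with nanoceria, 9.64 in space without, 10.27, 10.29 and 10.81 on ground with nanoceria, and 9.21 and 7.52 on ground without. The mean log2 intensity of all 8 myoblast and muscle genes was 7.89 and 8.16 in space with nanoceria, 8.34 in space without, 8.53, 8.38 and 8.79 on ground with nanoceria, and 7.86 and 7.24 on ground without. The mean of the muscle list was thus highest on the 3 ground nanoceria arrays, 1 of them only just above the space untreated array. Acta1, Chrna1 and Vim were each highest on all 3, whereas Des, Myod1, Myf5, Myog and Actc1 were not. Des was highest on space nanoceria array 2 (7.80) and Myf5 on the space untreated array (4.75). Among other markers, Pecam1 of endothelium (4.16 to 4.73), Ptprc of leukocytes (4.03 to 4.62) and Epcam of epithelium (3.75 to 4.19) were dim. Kdr of endothelium (5.85 to 6.24), Cd68 of leukocytes (7.11 to 7.74) and Krt8 of epithelium (10.42 to 12.15) were brighter. Ground untreated array 3 stood apart: the mean log2 intensity of 4 measured proliferation genes was 7.05 there, against 10.1 to 10.7 on the other 7 arrays. Every comparison was refitted without this array. Refits of single genes were followed only for the named differences. Where a difference given below then moved by over 1.5 times, the refitted value stands beside it.

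No Rab or escort protein gene passed the test in any comparison. With limma and Benjamini-Hochberg adjustment over all 23188 probe sets, 0 of 56 genes had an adjusted p below 0.05, and 0% of all probe sets did, in each of the 7 comparisons made. At an unadjusted p below 0.05, 4 genes lay higher and 2 lower in space than on ground, a share of 7.14% and 3.57% of the 56, beside 5.3% and 4.26% of all probe sets. Without Chm, whose difference was known when the family was chosen, 3 of 55 lay higher (5.45%). With nanoceria against without, 4 lay higher (7.14%) and 5 lower (8.93%), beside 3.77% and 5.86%. The shares thus lay within a few percentage points of those of the whole array. The median log2 difference was -0.02 for the family and -0.04 for all probe sets between space and ground, and 0.04 and 0.03 between nanoceria and no treatment.

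**Figure D1:**
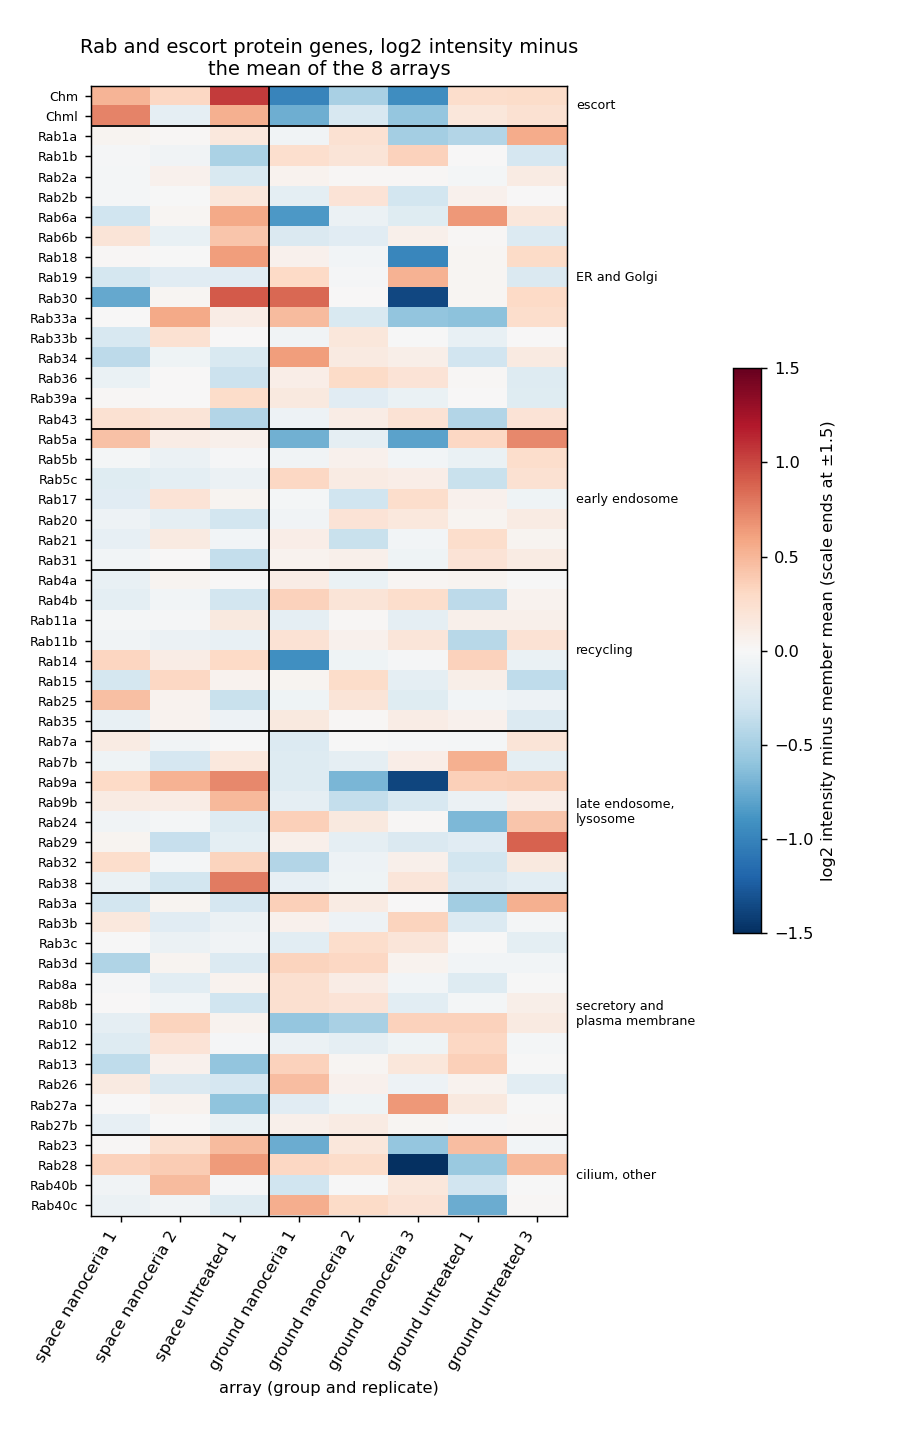
Heat map of the 56 genes (rows, grouped by role) on the 8 arrays (columns), as log2 intensity minus each gene's mean over the arrays. Chm, Chml and Rab9a are blue on all 3 ground nanoceria arrays and Rab4b is red there, and the darkest blue cell is Rab28 on ground nanoceria array 3.

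The promoters of 4 genes are shown, picked from those that lay apart on all 3 ground nanoceria arrays. Chm, Chml and Rab9a lay lower there than on the other 5 arrays, and Rab4b lay higher. Windows of the other genes that lay apart are not shown. Each run holds 250 bases before and 50 after the RefSeq start site on assembly GRCr8, 5′ to 3′ in the gene's direction. Capitals mark exact matches, on either strand, to 4 motifs. These are ACGTG, the core of hypoxia response elements, GGGCGG, the GC box of Sp1-type factors, CCAAT, and TGACNNNGC, the core of antioxidant response elements. The Chm window is chrX:82554147-82554446 on the minus strand, that of Chml chr13:90152048-90152347 on the minus strand, that of Rab9a chrX:31609839-31610138 on the plus strand, and that of Rab4b chr1:91600288-91600587 on the minus strand.
Chm: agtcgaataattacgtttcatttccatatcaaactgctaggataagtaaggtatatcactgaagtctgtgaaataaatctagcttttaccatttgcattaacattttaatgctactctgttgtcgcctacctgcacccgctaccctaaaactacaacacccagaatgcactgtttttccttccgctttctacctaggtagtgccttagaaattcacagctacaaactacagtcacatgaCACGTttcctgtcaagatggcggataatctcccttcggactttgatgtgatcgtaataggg
Chml: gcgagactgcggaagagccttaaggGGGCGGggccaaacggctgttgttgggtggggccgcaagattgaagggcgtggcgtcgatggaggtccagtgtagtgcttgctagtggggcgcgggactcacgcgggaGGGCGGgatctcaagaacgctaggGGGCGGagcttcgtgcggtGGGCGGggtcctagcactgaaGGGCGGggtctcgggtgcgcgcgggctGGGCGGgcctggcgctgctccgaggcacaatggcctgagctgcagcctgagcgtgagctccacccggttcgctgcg
Rab9a: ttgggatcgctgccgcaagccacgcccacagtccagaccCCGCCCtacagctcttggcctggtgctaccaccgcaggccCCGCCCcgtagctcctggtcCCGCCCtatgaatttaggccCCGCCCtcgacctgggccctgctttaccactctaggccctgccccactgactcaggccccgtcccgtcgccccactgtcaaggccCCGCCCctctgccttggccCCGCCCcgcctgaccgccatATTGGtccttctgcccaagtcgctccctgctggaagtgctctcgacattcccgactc
Rab4b: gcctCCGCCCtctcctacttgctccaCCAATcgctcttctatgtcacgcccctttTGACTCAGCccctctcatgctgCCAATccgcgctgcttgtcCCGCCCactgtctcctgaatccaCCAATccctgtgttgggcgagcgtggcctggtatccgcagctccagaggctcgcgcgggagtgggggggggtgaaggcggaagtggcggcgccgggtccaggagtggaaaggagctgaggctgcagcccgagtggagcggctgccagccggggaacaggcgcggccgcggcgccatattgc

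The 4 windows differed in make-up. The Chm window had a GC content of 40.3% and 9 CpG dinucleotides, held no GC box and carried 1 ACGTG match, read on the other strand. The Chml and Rab9a windows had 6 GC boxes each, and that of Rab9a also had 1 CCAAT match. The Rab4b window had 2 GC boxes, 3 CCAAT matches and 1 TGACNNNGC match. A match describes letters only and says nothing about binding in these cells. Only some of the genes that lay apart are shown, so the 4 windows do not tie a motif to a direction.

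Over the family, 47 of the 56 genes had a promoter in the RefSeq table. Their median GC content was 63.7% and they held a median of 21 CpG dinucleotides, against 58.0% and 16 for the 12435 promoters of genes named on the array. A GC box occurred in 37 of the 47 promoters (78.7%), against 49.9% of the array's genes. The other 3 motifs were about as frequent in the family as elsewhere: ACGTG in 25.5% against 22.1%, CCAAT in 36.2% against 37.9%, and TGACNNNGC in 12.8% against 13.4%. These shares are descriptions, and no test was made of them.

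Chm, which encodes Rab escort protein 1, was lowest in ground cells given nanoceria. Its log2 intensity was 7.80 and 7.61 on the space nanoceria arrays, 8.34 on the space untreated array, 6.31, 6.81 and 6.37 on the ground nanoceria arrays, and 7.56 and 7.58 on the ground untreated arrays. The 3 space arrays lay above all 5 ground arrays, though narrowly above the untreated ones, and the 3 ground nanoceria arrays lay below every other array. The difference between space and ground was 1.06 ± 0.16 (log2, SE), a 2.08-fold higher intensity. It was already known from earlier results of these data when the family was chosen, so it is given without a test. Among treated cells alone, space exceeded ground by 1.21 ± 0.20.

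With nanoceria against without, Chm differed by -0.92 ± 0.16 (adjusted p = 0.337, limma), and on the ground alone by -1.07 ± 0.20 (adjusted p = 0.154, limma), or 0.476 of the untreated intensity. The value on the ground is measured on the same 3 ground nanoceria arrays as the space difference in treated cells, so the 2 values are not independent. On the same 3 arrays the mean of the muscle list was highest, though not each of its genes. The part of the muscle list in the Chm values was not tested. Over the alternative settings Chm ranged over -1.23 to -0.96 on the ground, with adjusted p between 0.134 and 0.460.

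Chml, the gene of the second escort protein, had the same order of groups with more scatter. It read 6.78 and 5.90 in space with nanoceria, 6.57 in space without, 5.30, 5.80 and 5.46 on ground with nanoceria, and 6.20 and 6.26 on ground without, all log2 intensity. Space and ground overlapped, because the second space nanoceria array lay below both ground untreated arrays. The difference between space and ground was 0.65 ± 0.22 (adjusted p = 0.441, limma), and it was 0.36 without space nanoceria array 1. Nanoceria differed from untreated by -0.54 (adjusted p = 0.501) and on ground by -0.71 ± 0.28 (adjusted p = 0.422). In treated cells, space exceeded ground by 0.82 ± 0.28 (adjusted p = 0.502), with 0.38 without space nanoceria array 1 and 1.26 without array 2.

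**Figure D2:**
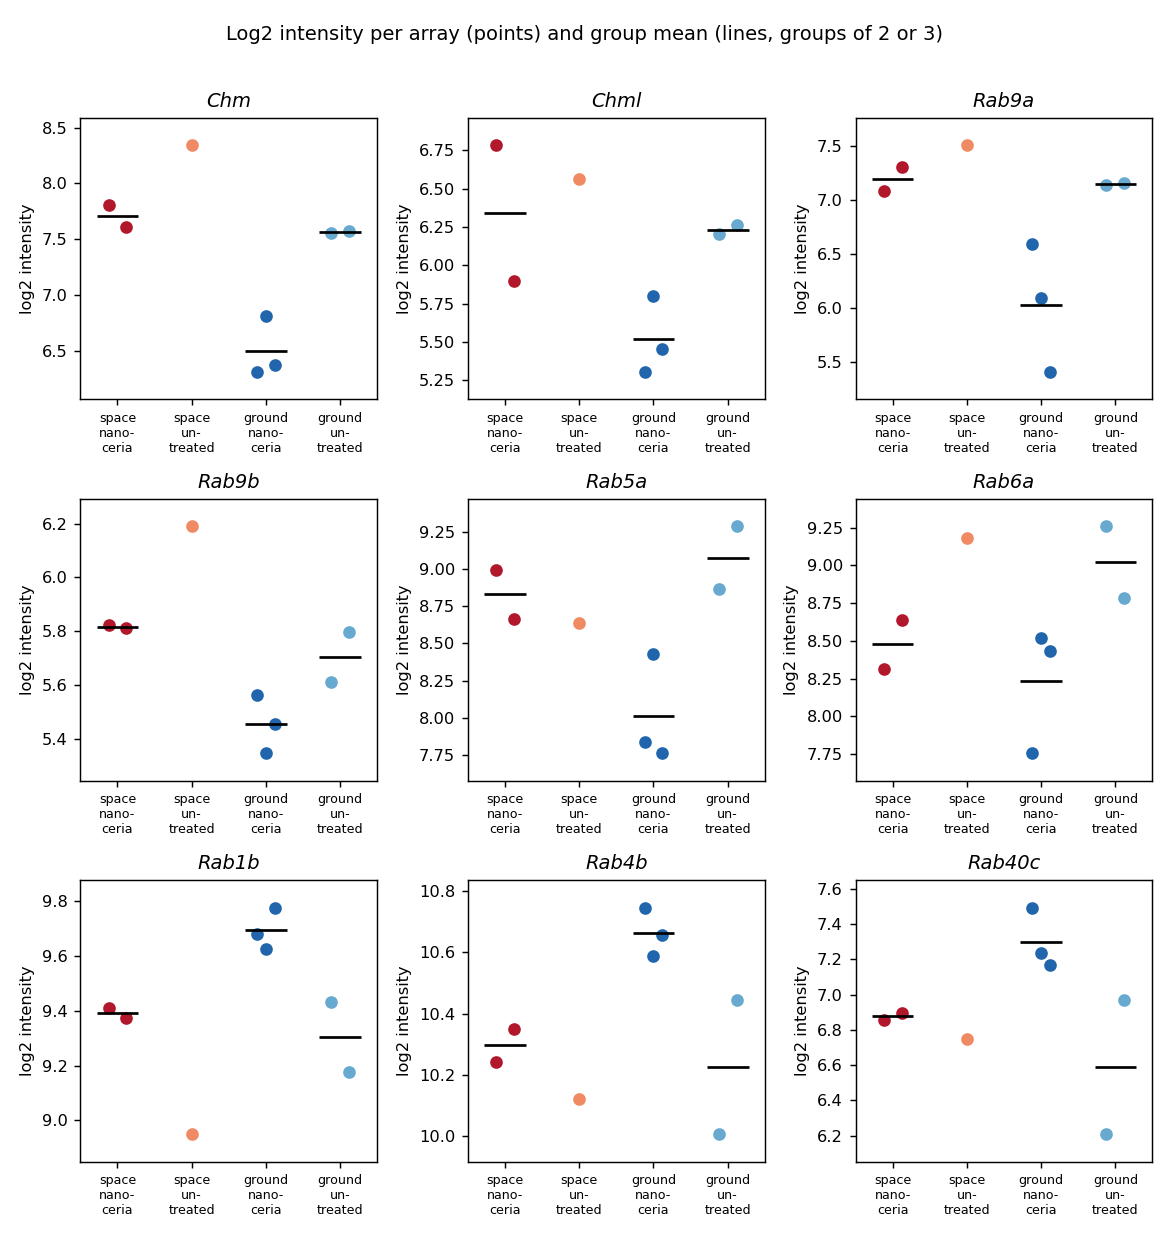
Log2 intensity of 9 genes by group, with 1 point per array and a line at the mean of groups of 2 or 3 arrays. In Chm, Chml, Rab9a, Rab9b and Rab5a the 3 ground nanoceria points lie below all others, and in Rab1b, Rab4b and Rab40c above all others.

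Rab9a and Rab9b belong to late endosomes, from which Rab9 proteins return receptors to the trans-Golgi. Rab9a read 7.08 and 7.30 in space with nanoceria, 7.50 in space without, 6.59, 6.09 and 5.41 on ground with nanoceria, and 7.14 and 7.16 on ground without. Ground nanoceria arrays were lowest, and the other 5 arrays spread over less than the treated ground arrays did among themselves. The log2 difference was 0.87 ± 0.27 between space and ground (adjusted p = 0.405, limma) and -0.83 between nanoceria and untreated (adjusted p = 0.447). On the ground nanoceria gave -1.12 ± 0.32 (adjusted p = 0.302), and in treated cells space gave 1.16 ± 0.32 (adjusted p = 0.424). These too share the ground nanoceria arrays.

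Rab9b varied far less. Its log2 intensity was 5.82 and 5.81 on space nanoceria arrays, 6.19 on the space untreated array, 5.56, 5.35 and 5.45 on ground nanoceria arrays, and 5.61 and 5.80 on ground untreated arrays. The space arrays lay just above the ground arrays without overlap. The difference was 0.41 ± 0.12 between space and ground (adjusted p = 0.398, limma) and -0.29 between nanoceria and untreated (adjusted p = 0.480).

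Among the other late endosomal and lysosomal genes, Rab7a, which drives fusion with lysosomes, was the brightest of the 56 and read 12.88 to 13.27 over the arrays. Its difference was 0.04 ± 0.12 between space and ground. It was 0.08 without ground untreated array 3 and turned sign without space nanoceria array 1 or ground nanoceria array 1. In this list of 8 genes, 7 had a negative difference with nanoceria, with a median of -0.26 against 0.03 for all probe sets. Only Rab9a and Rab9b among the 8 had an unadjusted p below 0.05 there. Rab36, which takes part in positioning late endosomes and lysosomes, was listed with the Golgi genes and gave 0.28 with nanoceria. The list was drawn up with earlier results of these data known.

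Rab5a, the Rab of early endosome fusion, was lower in ground cells with nanoceria, on the probe set that carries its symbol. The number in that probe set's identifier is chromosome 14, whereas RefSeq places Rab5a on chromosome 9. In the other 55 genes the 2 chromosomes match, so the values may belong to another locus than Rab5a itself. The probe set read 8.99 and 8.67 in space with nanoceria, 8.64 in space without, 7.84, 8.43 and 7.76 on ground with nanoceria, and 8.87 and 9.29 on ground without. Nanoceria on ground gave -1.07 ± 0.26 (adjusted p = 0.248, limma), and space in treated cells gave 0.82 (adjusted p = 0.470). The interaction of regime and treatment was 1.26 ± 0.43, with an unadjusted p of 0.0208 and an adjusted p of 1.00 by limma, and it rests on the single untreated space array. On the ground, Rab5b differed by -0.10 ± 0.17 with nanoceria and Rab5c by 0.23 ± 0.20, and each turned sign without 1 of the ground untreated arrays, Rab5b without array 3 (0.08) and Rab5c without array 1 (-0.05), while Rab5c was 0.50 without array 3.

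Rab20, a hypoxia-responsive Rab of endosomes and phagosomes, read 4.99 and 4.92 in space with nanoceria, 4.78 in space without, 5.01, 5.27 and 5.21 on ground with nanoceria, and 5.11 and 5.19 on ground without. The difference between space and ground was -0.26 ± 0.12 (adjusted p = 0.526, limma). All 3 space arrays lay below the 5 ground arrays by small margins.

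Rab6a and Rab1b, which act in Golgi traffic, differed in opposite directions with nanoceria. Rab6a, which serves transport within and back from the Golgi, read 8.32 and 8.64 in space with nanoceria, 9.18 in space without, 7.76, 8.52 and 8.43 on ground with nanoceria, and 9.26 and 8.78 on ground without. The 5 nanoceria arrays lay below the 3 untreated arrays. The difference was -0.76 ± 0.21 over both regimes (adjusted p = 0.412, limma) and -0.78 ± 0.28 on ground (adjusted p = 0.385). Its paralog Rab6b gave -0.14 ± 0.15 over both regimes, which ranged over -0.25 to -0.01 in the alternatives and was -0.24 without ground untreated array 3.

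Rab1b, needed for traffic out of the endoplasmic reticulum, read 9.41 and 9.37 in space with nanoceria, 8.95 in space without, 9.68, 9.62 and 9.78 on ground with nanoceria, and 9.43 and 9.17 on ground without. Treated and untreated arrays overlapped slightly, at the top untreated ground array. Nanoceria gave 0.41 ± 0.12 (adjusted p = 0.413, limma) and space against ground -0.32 ± 0.12 (adjusted p = 0.459). On ground, nanoceria gave 0.39 ± 0.16 (adjusted p = 0.428). Its paralog Rab1a, among the 6 brightest genes, gave -0.16 ± 0.24 with nanoceria, or 0.11 without ground untreated array 3.

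Rab36, which takes part in positioning late endosomes and lysosomes, read 7.24 and 7.34 in space with nanoceria, 7.02 in space without, 7.44, 7.63 and 7.54 on ground with nanoceria, and 7.35 and 7.14 on ground without. Nanoceria gave 0.28 ± 0.11 (adjusted p = 0.492, limma), and the 2 treatments overlapped. On ground the difference was 0.29, or 0.18 without ground untreated array 3. In treated cells, Rab19 differed by -0.49 ± 0.20 between space and ground (adjusted p = 0.584), and Rab34, a ciliary and Golgi Rab, by -0.51 ± 0.23, or -0.34 without ground nanoceria array 1.

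Rab4b, which acts in recycling from early endosomes, was higher in ground cells with nanoceria. It read 10.24 and 10.35 in space with nanoceria, 10.12 in space without, 10.75, 10.59 and 10.66 on ground with nanoceria, and 10.01 and 10.44 on ground without. Nanoceria gave 0.35 ± 0.14 over both regimes (adjusted p = 0.488, limma) and 0.44 ± 0.18 on ground (adjusted p = 0.437). Without ground untreated array 1 these were 0.20 and 0.22. The paralog Rab4a had the smallest range of the 56 genes, 0.22 over the 8 arrays. It differed by -0.02 ± 0.11 with nanoceria, or -0.035 without ground untreated array 3, with either sign in the alternatives.

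Rab40c, a Rab with a SOCS box that recruits ubiquitin ligases, read 6.86 and 6.90 in space with nanoceria, 6.75 in space without, 7.49, 7.23 and 7.17 on ground with nanoceria, and 6.21 and 6.97 on ground without. Nanoceria gave 0.50 ± 0.21 (adjusted p = 0.494, limma), 0.33 with array weights and 0.23 without ground untreated array 1. On ground the difference was 0.71 ± 0.24 (adjusted p = 0.368), 0.33 without ground untreated array 1 and 1.09 without array 3. The size of the difference therefore followed which untreated ground array was kept. Rab40b, its paralog, gave 0.15 ± 0.17 with nanoceria, which ranged over 0.04 to 0.23 in the alternatives, the highest being without ground untreated array 3.

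Rab13, which delivers proteins to the cell surface and to tight junctions, read 8.82 and 9.27 in space with nanoceria, 8.61 in space without, 9.54, 9.23 and 9.37 on ground with nanoceria, and 9.55 and 9.19 on ground without. Space differed from ground by -0.49 ± 0.17 (adjusted p = 0.441, limma), with 1 space array inside the ground range. Rab3d, of regulated secretion, gave -0.34 ± 0.15 (adjusted p = 0.530), and -0.18 without space nanoceria array 1. In treated cells alone its difference was -0.44, with -0.19 and -0.69 when space nanoceria array 1 or 2 was left out. Of 12 secretory and plasma membrane genes, 10 had a negative difference in space, with a median of -0.16 against -0.04 for all probe sets, and 10 had a positive one with nanoceria, with a median of 0.15 against 0.03. Of these 12, only Rab13 had an unadjusted p below 0.05 in either comparison. This list too was drawn up with earlier results known, and signs were not counted over all probe sets.

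**Figure D3:**
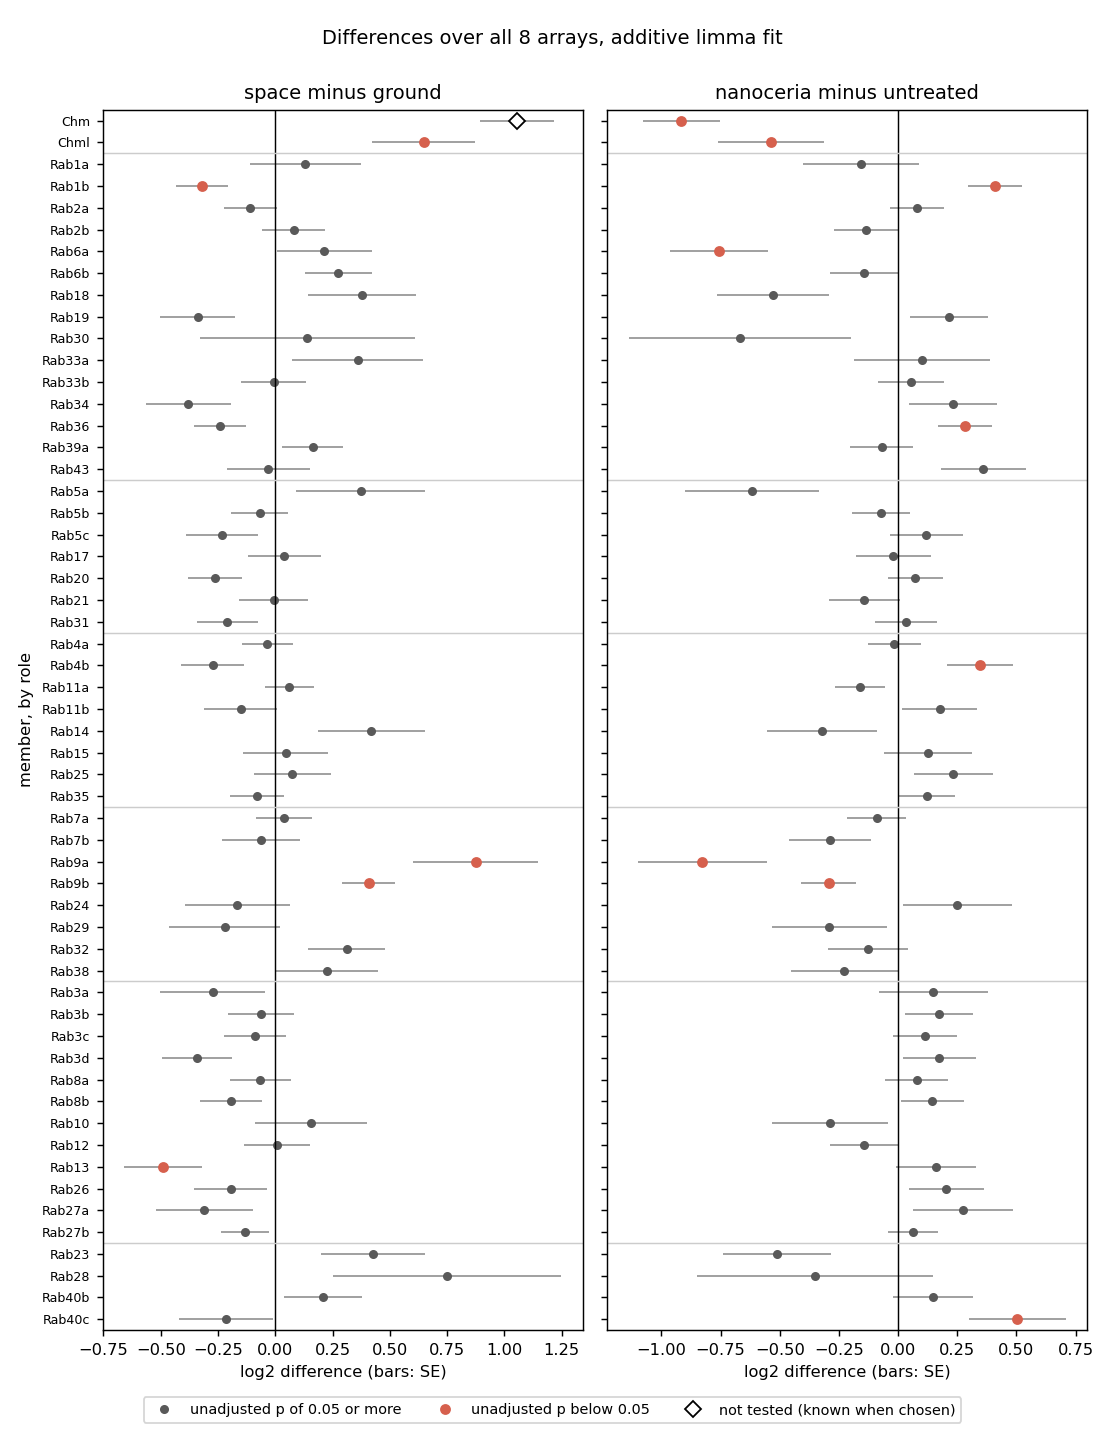
Log2 difference with its standard error for the 56 genes by role, space minus ground on the left and nanoceria minus untreated on the right, from the additive fit. Red points have an unadjusted p below 0.05: Chml, Rab9a and Rab9b lie to the right in space and to the left with nanoceria, and Rab1b the other way round. The open diamond is Chm in space (1.06), marked as not tested since it was known when the family was chosen. The fit and the counts include it.

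Among ground cells alone and among treated cells alone, the shares again differed from those of the whole array by a few percentage points. On ground, 3 genes lay higher with nanoceria (5.36%) and 5 lower (8.93%), beside 4.42% and 6.57% of all probe sets. In treated cells, 5 lay higher in space than on ground (8.93%) and 1 lower (1.79%), beside 5.02% and 3.39%, and without Chm 4 of 55 lay higher (7.27%). The median of the family was 0.01 against 0.04 for all probe sets on ground, and -0.04 against -0.05 in treated cells. The comparisons with the lone untreated space array were made on fewer samples. At an unadjusted p below 0.05, 2 genes differed for nanoceria in space, both lower (3.57% of the 56), beside 1.47% of probe sets in either direction. Between untreated cells in space and on ground 5 did, beside 3.14%, with 3 higher in space (5.36%) and 2 lower (3.57%). For the interaction 2 did, beside 2.35%, with 1.79% of the family in each direction. Chm, known when the family was chosen, is among the genes counted for nanoceria in space and for untreated cells. The family's shares there are therefore not read as an excess. These shares rest on the lone array and were not tested.

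The count at an unadjusted p depended on single arrays. For space against ground, 6 genes became 3 without space nanoceria array 1 and 11 without ground untreated array 1. For nanoceria, 9 became 4 without space nanoceria array 2, and 5 without ground untreated array 1 or without ground nanoceria array 3. On ground, 8 became 3 without ground nanoceria array 1 and 5 without ground untreated array 1, and in treated cells 6 became 2 without space nanoceria array 1. The adjusted count was 0 in each of these fits.

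The ground nanoceria arrays stood below all 5 others in 5 genes (Chm, Chml, Rab5a, Rab9a and Rab9b), 8.93% of the family beside 6.86% of probe sets. They stood above all others in 6 genes (Rab1b, Rab27b, Rab36, Rab3d, Rab40c and Rab4b), 10.7% beside 6.79%. Chm, known when the family was chosen, and the Rab5a probe set, which may belong to another locus, are among the 5. The split was noticed after the values were seen, so it is a description and neither share is read as an excess. The mean of the muscle list, though not each of its genes, was also highest on these arrays, and its part in the split was not tested. Taken over the 8 arrays, the range of a gene was 0.22 to 2.52 with a median of 0.77, against 0.76 for all probe sets. A range below 0.5 was seen in 13 of 56 genes, beside 5318 of 23188 probe sets. A range of 1 or more was seen in 19 genes, beside 7088 probe sets.

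The brightest genes after Rab7a were Rab11b (11.62 to 12.25), Rab5b, Rab1a, Rab14 and Rab34, and the dimmest were Rab17, Rab3c and Rab7b. Rab11b and Rab14 serve recycling endosomes. Rab11b differed by -0.15 ± 0.16 between space and ground, or -0.26 without ground untreated array 1 and -0.07 without array 3. Rab14 differed by 0.42 ± 0.23, or 0.23 without ground nanoceria array 1. Rab17 read 3.75 to 4.30. Brightness depends on the probe set, so these levels do not order the transcripts, and no measure of background was available to say whether the dim ones were detected.

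The partners of the Rabs were read from lists of exchange factors, GTPase-activating proteins, effectors and the prenylation machinery, drawn up with earlier results of these data known. None of them passed the adjusted test. The effectors, of which 54 of 66 listed were measured, lay lower with nanoceria in 11 cases (20.4%) and higher in 4 (7.41%) at an unadjusted p below 0.05, beside 5.86% and 3.77% of all probe sets. In space they lay higher in 8 cases (14.8%) and lower in 2 (3.70%), beside 5.3% and 4.26%. At the same threshold, 3 of 23 measured exchange factors were higher (13.0%) and 2 lower (8.70%) in space. With nanoceria 0 of them were higher and 3 lower (13.0%). Of 22 GTPase-activating proteins, 3 were higher (13.6%) and 2 lower (9.09%) in space. With nanoceria 1 was higher (4.55%) and 2 lower (9.09%). These stand beside the same shares of all probe sets as given for the effectors. The median difference of the effectors with nanoceria was -0.05, against 0.03 for all probe sets.

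The effectors named here were picked by their lowest p on these same arrays. Of all probe sets, 6.86% lay lower on all 3 ground nanoceria arrays than on the other 5. Gcc2, a trans-Golgi golgin that binds Rab6 and Rab9 in human cells, was lowest there. It read 7.49 and 7.05 in space with nanoceria, 7.96 in space without, 6.20, 6.17 and 6.58 on ground with nanoceria, and 8.13 and 7.46 on ground without. Nanoceria gave -1.20 ± 0.23 (adjusted p = 0.337, limma), and on ground -1.48 ± 0.26 (adjusted p = 0.145). Rabep1, the effector of Rab5 and Rab4 known as rabaptin-5, gave -1.01 ± 0.30 (adjusted p = 0.424), or -0.66 without ground untreated array 3, and Uso1, the Rab1-bound tether of the Golgi, -0.73 ± 0.19 (adjusted p = 0.412).

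Dennd6a, an exchange factor of Rab14, gave -0.71 ± 0.18 with nanoceria (adjusted p = 0.412, limma), and Dennd10, another DENN-domain protein, -0.59 ± 0.17 (adjusted p = 0.416). Evi5, a binding partner of Rab11, gave -0.48 ± 0.18 (adjusted p = 0.464), -0.73 without the space untreated array and -0.30 with array weights, whereas Tbc1d10a, which inactivates Rab27a and Rab35, gave 0.65 ± 0.15 (adjusted p = 0.358). In space, Rab3il1, an exchange factor of the Rab8 group, gave -0.77 ± 0.19 (adjusted p = 0.378), and Vps52, a subunit of Golgi tethering complexes, -0.46 ± 0.12 (adjusted p = 0.379). All of these differences missed the threshold.

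The genes of the machinery that the escort proteins feed all had an unadjusted p above 0.05. Rabggta, the alpha subunit of the transferase, gave -0.14 ± 0.13 between space and ground and 0.20 ± 0.13 with nanoceria (adjusted p = 0.763 and 0.665, limma). The first ranged over -0.21 to -0.08 in the alternatives, the larger being without space nanoceria array 2 (-0.09 without array 1). Rabggtb, the beta subunit, read 8.96 and 8.98 in space with nanoceria, 9.33 in space without, 9.37, 8.88 and 7.20 on ground with nanoceria, and 7.90 and 9.49 on ground without. The spread inside each ground group was thus wider than the difference between regimes, 0.54 ± 0.51. That difference was 0.16 without ground nanoceria array 3, 0.81 without ground nanoceria array 1, 0.30 without ground untreated array 1 and 0.35 with array weights. Gdi2, a GDP dissociation inhibitor, gave -0.30 ± 0.15 with nanoceria (adjusted p = 0.564), or -0.20 without ground nanoceria array 1.

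**Figure D4:**
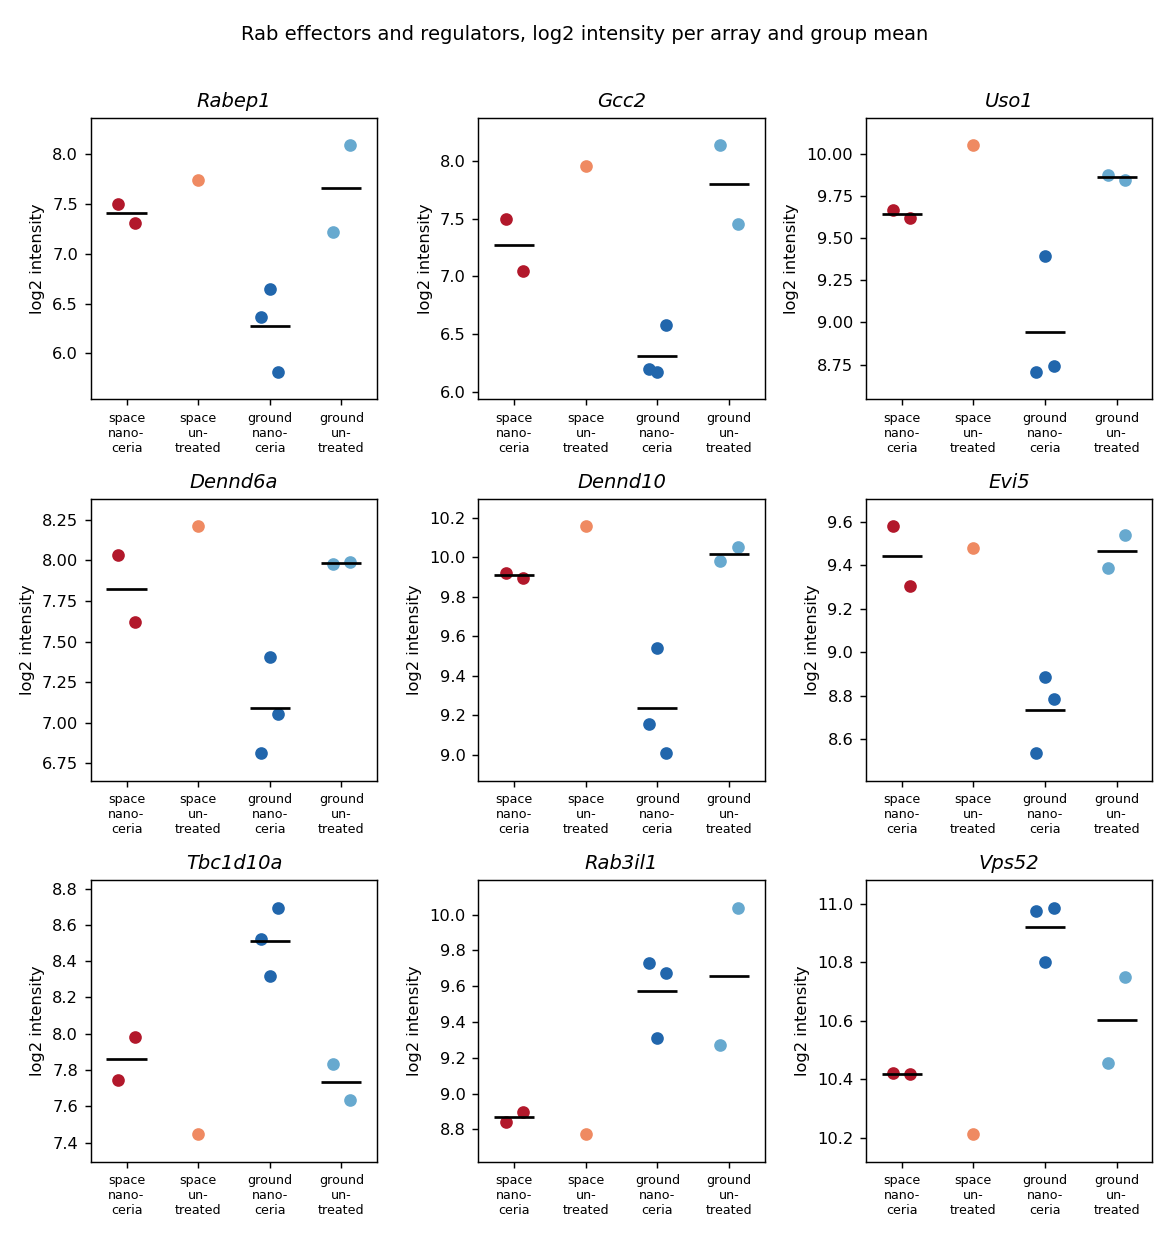
Log2 intensity of 9 Rab effectors and regulators by group, with 1 point per array and a line at the mean of groups of 2 or 3 arrays. The ground nanoceria points are the lowest in Rabep1, Gcc2, Uso1, Dennd6a, Dennd10 and Evi5, and the highest in Tbc1d10a and Vps52. These genes were named by their p on the same arrays.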

How the data were processed

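Total RNA of 8 H9c2 samples was measured on 1 array each. The deposited intensity values were made by the authors with RMA, per the submitters' processing notes, whose version and settings are not given in the sources used here. They were linear (8.63 to 19506) where the design had assumed log2 values, so log2 was taken, with no pseudocount or filter. Of 23188 probe sets, 8139 had no symbol here. Models were run in limma 3.58.1 under R 4.3.3 (lmFit and eBayes, two-sided, Benjamini-Hochberg over all probe sets at 0.05). Regime and treatment as additive terms, with 5 residual degrees of freedom, gave space against ground and nanoceria against untreated. A model of 4 group means, with 4, gave the other 5 comparisons, and takes the spread of the lone untreated space array from the other groups. In simulated data of 23188 probe sets, 200 were changed, some 2-fold and some 4-fold. The share of 2-fold changes found was 60% between space and ground and 57% with nanoceria. It was 29% with nanoceria on ground and 26% for space in treated cells. The simulated noise was normal and independent between probe sets, and the 4-fold changes loosen the adjusted threshold. These shares may therefore overstate what could be found in the real arrays. Precision is limited by the number of arrays: the family's median standard error was 0.16 in the additive model and 0.20 for nanoceria on ground.

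The genes named were Chm and Chml, genes with an unadjusted p below 0.05 in the additive fit, in 4 comparisons the 4 genes per direction with the lowest p, the 6 brightest and 3 dimmest, and paralogs. Of the partner lists, up to 4 a list by p were named, plus the transferase and dissociation inhibitor genes. Not every gene so named is described. The family, the lists and the rule were chosen with earlier results of these data known. Alternatives were 2 other scalings, the brighter probe sets alone, an intensity trend in the variance, array weights, the replicate number as a block and each array left out. Promoters came from RefSeq, assembly GRCr8.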

Additional observations from a re-analysis of the deposited data

How the results depend on the processing

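The adjusted count was 0 under every alternative fitted, of 56 genes or, with the brighter probe sets alone, of 43, and 824 alternative values of named genes kept their direction and their adjusted p above 0.05. The other 8 turned sign, all from differences within about 1 standard error of 0. With each array left out in turn, Rab7a ranged over -0.031 to 0.105 between space and ground (negative without space nanoceria array 1 or ground nanoceria array 1). With nanoceria, Rab1a ranged over -0.415 to 0.110 (positive without ground untreated array 3), and Rab4a over -0.047 to 0.016 (positive without space nanoceria array 1 or ground nanoceria array 2). With equal array medians Rab4a was 0.00667. On ground, Rab5b ranged over -0.274 to 0.084 (positive without ground untreated array 3) and Rab5c over -0.047 to 0.505 (negative without ground untreated array 1). Counts at an unadjusted p below 0.05 did move. With array weights, 11 genes in place of 6 passed for space against ground and 4 in place of 8 for nanoceria on ground. With the replicate number as a block (replicate block), 5 in place of 9 passed for nanoceria, 5 in place of 8 on ground and 3 in place of 6 for space in treated cells. With each array left out in turn, the count ranged over 3 to 11 for space against ground, 4 to 9 for nanoceria, 3 to 12 on ground and 2 to 8 for space in treated cells. The cause was not tested.

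No label ties arrays with the same replicate number. Deviations of same-numbered arrays from their group means correlated at -0.35 to -0.01 across probe sets, and those of other pairs at -0.11 to 0.35. Within a group these deviations sum to 0, so the correlations cannot decide whether the numbers pair samples. Averaging the probe sets of a symbol gave no other value, since each gene had 1. Among others, Rab20, Rab9b and Rab19 were too dim for the fit of the brighter probe sets. Signal over background is unknown, which limits the dim genes, and 1 array stands for untreated cells in space.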

Other observations

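Several wide ranges in the family came at least in part from single arrays and were named after their values were seen. Rab28, a Rab of cilia and photoreceptors, read 7.55 on ground nanoceria array 3, against 8.88 to 10.07 on the other 7 arrays. Rab30 and Rab18, both of the Golgi and endoplasmic reticulum, were also lowest on that array, at 4.50 and 4.42. Elsewhere Rab30 still ranged over 5.10 to 6.78, and Rab18 over 5.37 to 6.04. Rab29, a partner of the kinase LRRK2 in human cells, read 10.05 on ground untreated array 3, against 8.82 to 9.24 on the others. Rab38, a Rab of melanosomes and lysosome-related organelles, read 5.14 on the untreated space array, against 4.09 to 4.54 elsewhere. Its interaction of regime and treatment was -1.16 ± 0.27, with an adjusted p of 1.00 by limma, and rests on that single array.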
